A study of Mus musculus with 5 samples.

Results

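The naive pluripotency factors examined were 10 genes, Klf2, Klf4, Klf5, Esrrb, Tbx3, Tfcp2l1, Zfp42, Prdm14, Nanog and Tcl1. They were taken by name, and all 10 were found among the 18193 genes of the array. Their transcripts were measured on 5 Affymetrix arrays hybridised with RNA of E14 mouse embryonic stem cells. Of these, 2 arrays held wild-type cells (WT) and 3 held cells labelled Trip12 mut/mut, homozygous for a mutation of the ubiquitin ligase gene Trip12. These 3 are called mutants 1, 2 and 3 after their replicate numbers. Both genotypes were cultured on feeders, a layer of mouse embryo fibroblasts, in medium with leukaemia inhibitory factor (LIF, 100 units/ml), 14% serum replacement and 1% fetal bovine serum. The titles call each array a biological replicate. The labels do not state what the Trip12 mutation is, how many clones stand behind the replicates or whether feeder cells were removed before extraction. P-values therefore measure the spread between these arrays, part of which may be technical. Values are log2 RMA values of 1 probe set per gene, a step of 1 being a 2-fold change in signal. Signals of different probe sets cannot be set against each other, so comparisons are within a gene.

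The naive state is the pluripotency of the preimplantation epiblast, and mouse embryonic stem cells keep it in culture when LIF activates the transcription factor Stat3. A set of transcription factors holds the state in place by activating each other together with Oct4 and Sox2. They decline as cells pass to the formative and primed states of the later epiblast, where Otx2, Fgf5 and the de novo DNA methyltransferases take over. Tfcp2l1, Klf4 and Klf5 lie downstream of LIF and Stat3, Tbx3 is also fed by phosphoinositide signalling, and Esrrb is released from repression by Tcf7l1 when Wnt signalling is active. Nanog, Klf2 and Prdm14 complete the regulators, Prdm14 being known for holding down FGF receptor and DNA methyltransferase genes. Zfp42, also called Rex1, is a zinc finger gene used as a marker of the state. Tcl1 is no DNA-binding factor, although it is grouped with them here: its protein is a coactivator of the kinase Akt, and its gene is an established target of the network in mouse embryonic stem cells.

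Promoter sequences of 4 members are shown because these genes stand for the patterns described below: Esrrb and Tcl1 were higher on a pair of mutant arrays, and Nanog and Zfp42 were not. Each run is the 250 bases before the annotated transcription start in RefSeq, 5′ to 3′ on the gene's strand, build GRCm38.p6. RefSeq entries were matched for 7 of the 10 members. Klf5, Tbx3 and Prdm14 had no entry. Capitals mark matches, on either strand, to ATGCAAA (the larger part of the octamer bound by Oct4), ACAATG (the Sox core), AAGGTCA (the core element of estrogen-related receptors such as Esrrb) and TTCNNNGAA (the Stat site).
Esrrb, first annotated start, chr12:86360867-86361116, plus strand: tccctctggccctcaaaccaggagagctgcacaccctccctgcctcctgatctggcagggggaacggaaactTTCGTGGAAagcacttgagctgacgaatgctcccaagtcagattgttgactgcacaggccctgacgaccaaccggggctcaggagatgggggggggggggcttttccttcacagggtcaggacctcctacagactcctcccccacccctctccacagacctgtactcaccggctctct
Tcl1, chr12:105222738-105222987, minus strand: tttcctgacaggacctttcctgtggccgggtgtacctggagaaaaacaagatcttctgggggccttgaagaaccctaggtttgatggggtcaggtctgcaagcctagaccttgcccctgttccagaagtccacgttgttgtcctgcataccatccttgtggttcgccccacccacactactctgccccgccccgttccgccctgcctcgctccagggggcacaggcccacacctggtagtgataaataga
Nanog, first annotated start, chr6:122707239-122707488, plus strand: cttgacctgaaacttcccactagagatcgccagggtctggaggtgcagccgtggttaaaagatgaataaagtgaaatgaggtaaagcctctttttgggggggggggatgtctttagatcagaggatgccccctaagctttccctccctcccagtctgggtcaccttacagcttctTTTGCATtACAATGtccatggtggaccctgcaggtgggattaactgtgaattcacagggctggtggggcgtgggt
Zfp42, chr8:43307010-43307259, minus strand: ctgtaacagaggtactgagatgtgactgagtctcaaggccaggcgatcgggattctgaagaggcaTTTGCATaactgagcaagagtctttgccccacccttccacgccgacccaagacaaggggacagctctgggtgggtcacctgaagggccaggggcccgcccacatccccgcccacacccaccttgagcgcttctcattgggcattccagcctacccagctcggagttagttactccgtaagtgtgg

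In the Nanog window the octamer letters began 75 bases before the start and the Sox core 67 bases before it, so that they lie side by side. The Zfp42 window held the octamer letters from 185 bases before the start. The first Esrrb window held letters of the Stat site from 178 bases before the start, and the Tcl1 window held none of the 4 motifs. Over 32851 promoter windows of the same length, 4.12% held the octamer letters, 10.7% the Sox core, 4.08% the receptor element and 7.02% the Stat site. All 9 windows of the 7 matched members held CCNCNCCC, the GC-rich box bound by KLF and Sp proteins, which 45.9% of all windows hold. In G- or C-rich runs matches to this box overlap each other. A match describes letters in these windows and is no evidence of binding.

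The array labelled mutant 1 resembled the WT arrays. It correlated with them at r = 0.9989 and 0.9988 over 45037 probe sets, as the WT arrays did with each other (0.9989), and these 3 arrays shared identical values at 20.5% to 21.1% of probe sets, against 10.3% between mutants 2 and 3. The brightest of 7 Trip12 probe sets, which represents the gene, read 10.17 and 10.25 on the WT arrays, 10.18 on the array labelled mutant 1, 12.09 on mutant 2 and 12.57 on mutant 3. Its difference of 1.41 over all 5 arrays did not pass (limma, adjusted p = 0.748), and was 0.447 with the probe sets of a gene averaged (adjusted p = 0.716). Of the 5 Trip12 probe sets above the median of all probe sets, 4 were higher on mutants 2 and 3 than on both WT arrays, while the fifth, with a WT mean of 6.10, was 0.41 and 0.86 below it, so the probe sets did not share a direction. On the array labelled mutant 1 these 5 lay between -0.03 and 0.10 of their WT means. The labels do not place the probe sets relative to the mutation. For the 10 members, the array labelled mutant 1 differed from the WT mean by -0.08 to 0.04. Each result is therefore given over all 5 arrays as labelled and without that array. P-values without it are too favourable, since it is left out on account of its own values.

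Over all 5 arrays, 0 of the 10 members passed the test (limma, adjusted p between 0.748 and 0.971), as did 0% of all 18193 genes, and 0 members had an unadjusted p below 0.05 against 214 genes in all. In no member did all 3 mutant arrays lie above, or all below, the pair of WT arrays, which was so for 5.73% of genes as higher and 6.29% as lower. The median difference of the members, Trip12 mut/mut minus WT, was 0.19, beside 0.02 for all genes. It was -0.0029 on the array labelled mutant 1, 0.31 on mutant 2 and 0.41 on mutant 3, where all genes had medians of 0, 0.03 and 0. Without the array labelled mutant 1 again 0 members and 0% of all genes passed (limma). In that fit 4 of the 10 members (Klf5, Esrrb, Tbx3 and Tcl1) and 3730 of the 18193 genes had an unadjusted p below 0.05. When genes were also required to lie above the median of all probe sets, 5.52, on at least 2 of the 4 remaining arrays, 11626 genes were left, including all 10 members. In that filtered comparison 4.64% of genes passed, 3.29% as higher and 1.34% as lower. There 1 member rose, Tcl1, and 0 fell. An unadjusted p below 0.05 (limma) was found there for the same 4 of the 10 members and for 28.8% of genes.

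**Figure D1:**
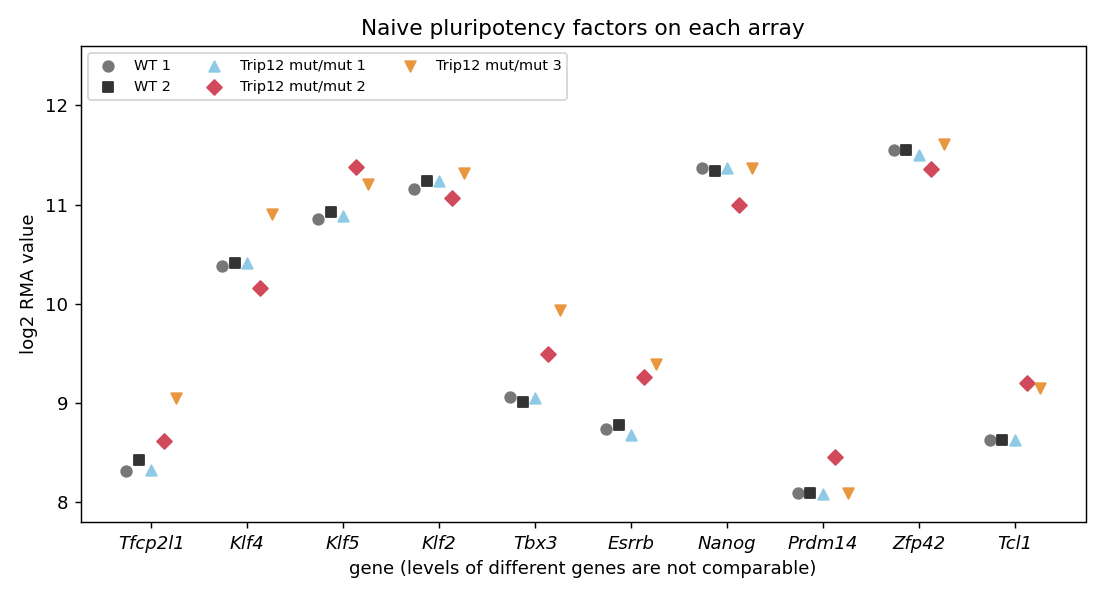
Log2 RMA values (vertical axis) of the 10 genes on each array; circles and squares are the 2 WT arrays, triangles, diamonds and inverted triangles the arrays labelled mutant 1, 2 and 3. The array labelled mutant 1 sits with WT for each gene, and mutants 2 and 3 lie above WT for Tfcp2l1, Klf5, Tbx3, Esrrb and Tcl1.

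The members fell into a part that was higher on both mutants 2 and 3 and a part in which these arrays lay on different sides of WT or among its values. Both arrays exceeded both WT arrays for 5 of 10 members, against 35.2% of the genes in the filtered comparison. With 10 members this count is not far from that share. The 5 were Klf5, Esrrb, Tbx3, Tfcp2l1 and Tcl1. Both arrays lay below WT for 0 members, against 22.1% of genes. For the same 5 members the mean of mutants 2 and 3 was at least 0.4 above the WT mean, which was so for 13.7% of genes. That step lies just under the smallest of the 5 differences, Klf5 with 0.402, and uses the same arrays. It therefore picks out the same members again and adds no separate support. Without the array labelled mutant 1 the median difference of the members was 0.29, beside 0.05 for the genes of the filtered comparison. In bulk samples, fewer cells of a type and less RNA per cell cannot be told apart.

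Among the genes downstream of LIF and Stat3, Tfcp2l1, a transcription factor of the grainyhead family, read 8.32 and 8.43 in WT, 8.33 on the array labelled mutant 1, 8.62 on mutant 2 and 9.05 on mutant 3. Mutants 2 and 3 lay above WT, mutant 3 by more. Its difference was 0.29 with an SE of 0.23 over all 5 arrays. Without the array labelled mutant 1 it was 0.46, a 1.37-fold higher signal, and did not pass (limma, filtered comparison, adjusted p = 0.185). The KLF gene Klf5 read 10.85 and 10.92 on the WT arrays, 10.89 on the array labelled mutant 1, 11.38 on mutant 2 and 11.20 on mutant 3. Again both lay above WT, here with the larger value on mutant 2. The difference was 0.27 (SE 0.16), and 0.40 or 1.32-fold without the array labelled mutant 1 (limma, filtered comparison, adjusted p = 0.0876).

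Klf4, a zinc finger factor also used in reprogramming to pluripotency, read 10.38 and 10.41 in WT, 10.42 on the array labelled mutant 1, 10.16 on mutant 2 and 10.91 on mutant 3. Mutant 2 lay below WT and mutant 3 above it. Their gap of 0.74 was the widest of any member, and a gap of that size was found for 0.525% of the genes in the filtered comparison. The difference was 0.10 (SE 0.24) over all 5 arrays, and 0.14 without the array labelled mutant 1 (limma, filtered comparison, adjusted p = 0.751). Klf2, which acts beside Klf4 and Klf5 and is held down by MEK signalling, read 11.16 and 11.24 on the WT arrays, 11.24 on the array labelled mutant 1, 11.07 on mutant 2 and 11.32 on mutant 3. The pair lay on either side of WT, and the difference without the array labelled mutant 1 was -0.0014 with an SE of 0.11.

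Tbx3, a T-box factor, had the widest span of the 10. It read 9.06 and 9.01 in WT, 9.05 on the array labelled mutant 1, 9.50 on mutant 2 and 9.94 on mutant 3. Both of the last arrays were well outside the WT values, by 0.46 and 0.90 from the WT mean. The difference was 0.46 (SE 0.28) over all 5 arrays. Without the array labelled mutant 1 it was 0.68, or 1.60-fold, and did not pass (limma, filtered comparison, adjusted p = 0.0988). With the probe sets of each gene averaged in that comparison, a setting chosen after seeing the data, Tbx3 rose by 0.445 (limma, adjusted p = 0.0323), where 9.66% of genes passed as higher. Esrrb, an orphan nuclear receptor, read 8.74 and 8.78 on the WT arrays, 8.68 on the array labelled mutant 1, 9.26 on mutant 2 and 9.39 on mutant 3. The latter pair was closer together than either was to WT. Its difference was 0.35 (SE 0.24) over all 5 arrays, and 0.57 or 1.48-fold without the array labelled mutant 1, at the edge of the threshold (limma, filtered comparison, adjusted p = 0.0501).

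Tcl1, the Akt coactivator, read 8.63 on both WT arrays and on the array labelled mutant 1, and 9.20 and 9.15 on mutants 2 and 3. The gap between mutants 2 and 3, which was 0.05, was the smallest of any member. The difference was 0.36 (SE 0.20) over all 5 arrays. Without the array labelled mutant 1 Tcl1 rose by 0.55, or 1.46-fold (limma, filtered comparison, adjusted p = 0.0467). Without the filter on dim probe sets the adjusted p was 0.0785.

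The remaining members, Nanog, Prdm14 and Zfp42, were near WT on mutant 3. Nanog, the homeobox factor at the centre of the network, read 11.37 and 11.34 in WT, 11.37 on the array labelled mutant 1, 11.00 on mutant 2 and 11.37 on mutant 3. Only mutant 2 stood apart, 0.36 below the WT mean. Without the array labelled mutant 1 the difference was -0.17 with an SE of 0.15 (limma, filtered comparison, adjusted p = 0.492). Prdm14, a PR domain factor, read 8.09 on both WT arrays, 8.08 on the array labelled mutant 1, 8.46 on mutant 2 and 8.09 on mutant 3. Again mutant 2 alone stood apart, here 0.37 above the WT mean. The difference without the array labelled mutant 1 was 0.18 (limma, filtered comparison, adjusted p = 0.464). Zfp42 read 11.55 on both WT arrays, 11.50 on the array labelled mutant 1, 11.36 on mutant 2 and 11.61 on mutant 3. The mutant values lay on either side of WT, and the difference was -0.06 both over all 5 arrays (SE 0.09) and without the array labelled mutant 1 (SE 0.11, filtered comparison).

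**Figure D2:**
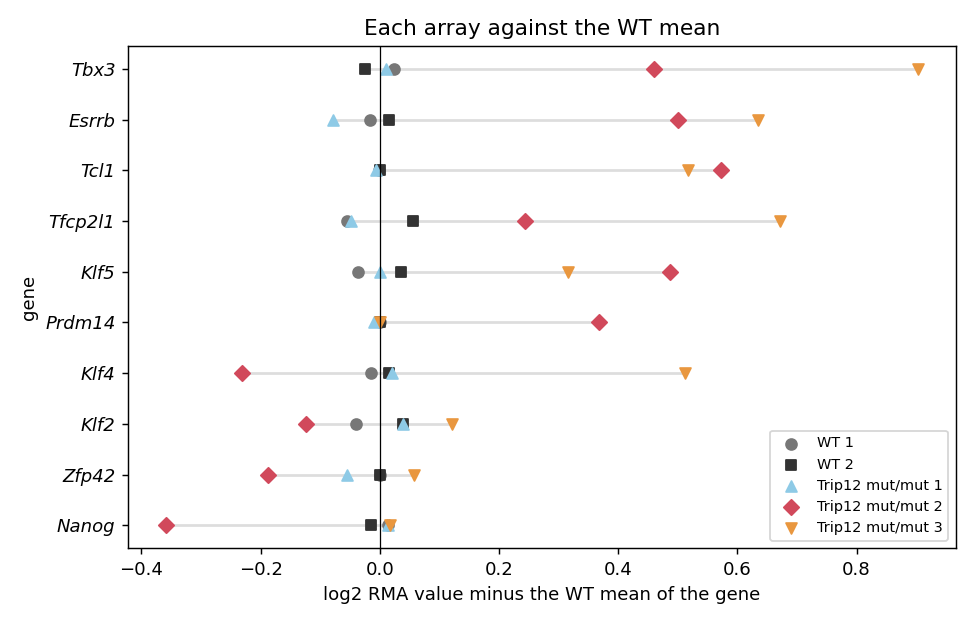
Each array's log2 RMA value minus the gene's WT mean (horizontal axis), with symbols for the 2 WT arrays and the arrays labelled mutant 1 to 3; grey lines join the lowest and the highest array. Genes are in order of their difference without the array labelled mutant 1. For Tbx3, Esrrb, Tcl1, Tfcp2l1 and Klf5 mutants 2 and 3 both lie to the right of WT. For Nanog, Klf4, Zfp42 and Klf2 mutant 2 lies to the left of WT.

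Mutants 2 and 3 differed from each other by more than 0.3 for 5 of the 10 members, against 29.0% of the genes in the filtered comparison. These were Klf4, Tbx3, Tfcp2l1, Nanog and Prdm14. Mutant 3 was the higher of the pair for Klf4, Tbx3 (by 0.44), Tfcp2l1 (0.43) and Nanog (0.38), and mutant 2 for Prdm14, with a difference of -0.37. The WT arrays differed by 0.11 at most, for Tfcp2l1. Over the genes of the filtered comparison the SD of the gap was 0.281 between mutants 2 and 3 and 0.0865 between the WT arrays.

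The 10 members had 21 probe sets, of which 15 had a mean above the median of all probe sets. Over all 45037 probe sets and 5 arrays, none of the 21 passed (limma, lowest adjusted p 0.784). For Tbx3 all 3 bright probe sets were higher on mutants 2 and 3. The second brightest, at 8.51 in WT, was 1.17 and 0.92 above that level, which was the largest difference of any member probe set, and the dimmest of the 3, at 6.37 in WT, was 0.40 and 0.71 above its own. The former has the suffix used by Affymetrix for probes that may bind more than 1 transcript. Klf5's second bright probe set was 0.54 above its WT mean on mutant 2 and 0.16 on mutant 3, but also 0.19 below it on the array labelled mutant 1.

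For Klf4 and Esrrb the probe sets disagreed. The second Klf4 probe set, with a WT mean of 9.97, was 0.42 and 0.58 above it on mutants 2 and 3, whereas the brighter one was 0.23 below WT on mutant 2. The direction of Klf4 on mutant 2 thus depended on the probe set. The second Esrrb probe set, of the same less specific type as the Tbx3 one, was 0.16 above its WT mean on the array labelled mutant 1, and 0.23 and 0.10 above it on mutants 2 and 3, so it did not set these arrays apart. The third Esrrb probe set lay at the median of all probe sets, with a WT mean of 5.5, and was -0.07 and 0.17 from it.

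**Figure D3:**
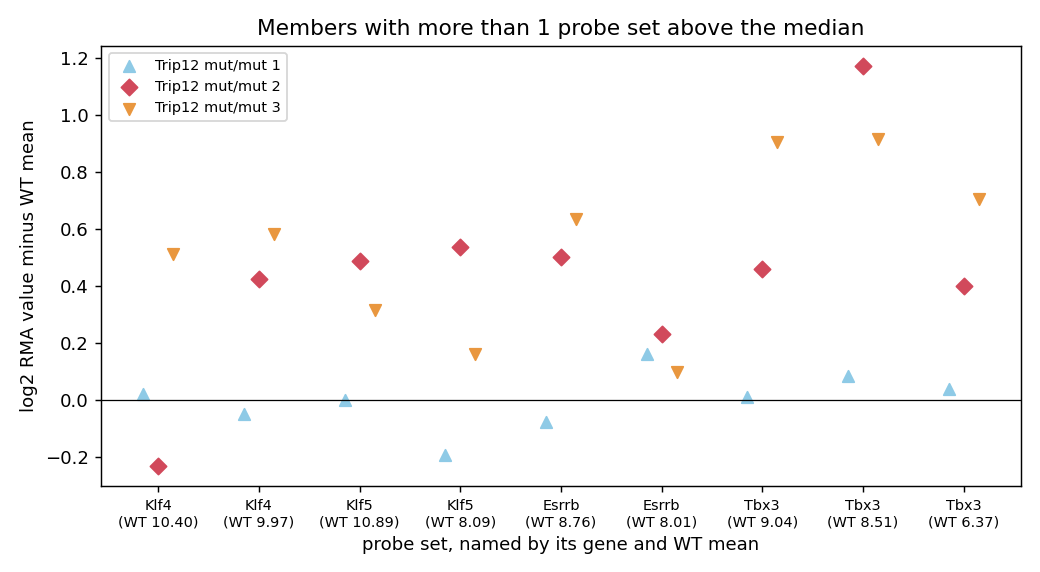
Log2 RMA value minus WT mean (vertical axis) on the arrays labelled mutant 1 (triangles), 2 (diamonds) and 3 (inverted triangles) for each probe set of the members with more than 1 probe set above the median of all probe sets. The 3 Tbx3 probe sets lie above WT on mutants 2 and 3, and the 2 Klf4 probe sets differ in direction on mutant 2.

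Other genes of the naive and LIF network differed in direction among themselves. Of 19 measured genes, 1 rose and 1 fell in the filtered comparison, against 3.29% and 1.34% of all genes, and 0 passed over all 5 arrays, with 0 below an unadjusted p of 0.05. Mutants 2 and 3 both lay above both WT arrays for 7 of the 19 and both below for 7, against 35.2% and 22.1% of genes, so the count above is near the share of all genes and the count below is over it. Dppa3, listed here as a naive gene and also a maternal and germline factor, fell by 2.10 (limma, adjusted p = 0.0243). Pecam1, a surface marker of naive cells, rose by 0.82 (limma, adjusted p = 0.0428). Sall4, a partner of Oct4, had a difference of -0.50 and Socs3, the feedback inhibitor of LIF signalling, one of 0.49, and neither passed (adjusted p = 0.095 and 0.165). The median without the array labelled mutant 1 was -0.13, against 0.29 for the 10 members. Over all 5 arrays it was -0.09, and 0.19 for the members.

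Most tested genes of the formative and primed epiblast were lower on the arrays on which Klf5, Esrrb, Tbx3, Tfcp2l1 and Tcl1 were higher. Of 14 tested in the filtered comparison 10 fell and 0 rose, against 1.34% and 3.29% of genes. Mutants 2 and 3 both lay below WT for 12 of the 14, and above it for 1, against 22.1% and 35.2% of genes. The latter was the cadherin gene Cdh2, named after its values were seen, which had a difference of 0.52 and did not pass. The median without the array labelled mutant 1 was -1.03 over 15 measured genes. Over all 5 arrays 0 passed, with 1 below an unadjusted p of 0.05. Otx2, the homeobox factor that directs enhancers in formative cells, fell by 2.45 (limma, adjusted p = 0.0243). Lef1, a Wnt mediator, fell by 2.06, and Zic2, a zinc finger factor, fell by 1.91. Fgf5, a growth factor of the later epiblast and 1 of the 10 that fell, read 7.22 and 7.10 on the WT arrays, 7.17 on the array labelled mutant 1, and 3.83 and 4.78 on mutants 2 and 3. The last 2 values lie under the median of all probe sets, so Fgf5 was kept by the filter through its WT values alone, and no size is given for its fall.

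**Figure D4:**
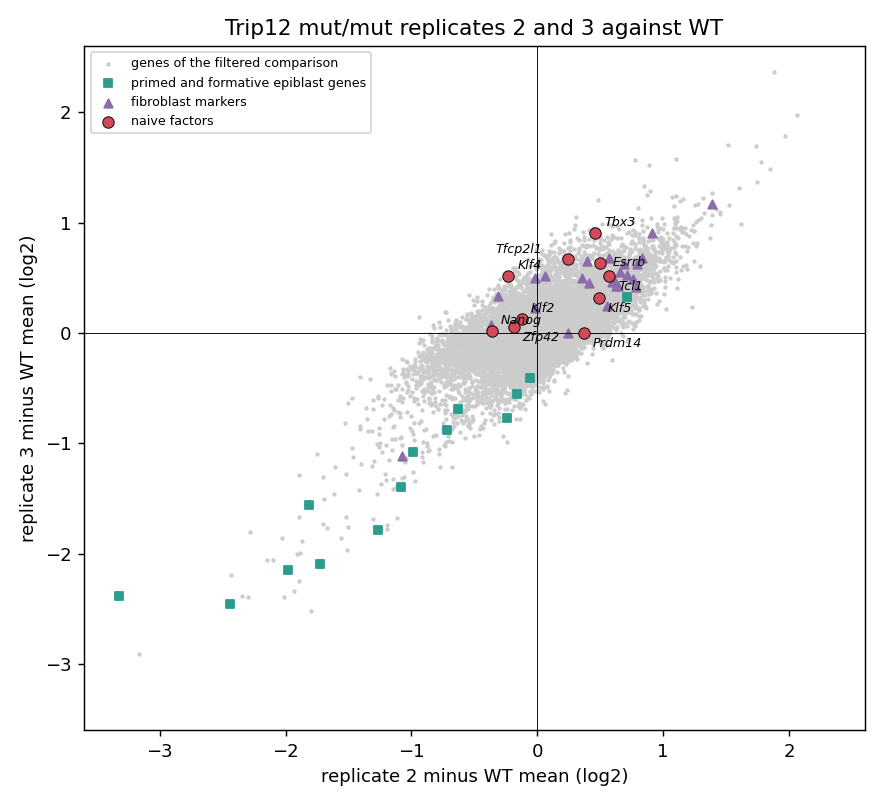
Log2 difference from the WT mean on mutant 2 (horizontal axis) and mutant 3 (vertical axis) for the 11626 genes of the filtered comparison (grey), the 10 naive factors (circles), formative and primed epiblast genes (squares) and fibroblast markers (triangles). The naive factors lie near the centre or to the upper right, and most squares to the lower left.

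Markers of fibroblasts, the feeder cell type, moved with these differences. Of 26 measured, 25 were above the median of all probe sets, and the mean over the 26 was 10.24 and 10.25 on the WT arrays, 10.22 on the array labelled mutant 1, and 10.66 on both mutants 2 and 3. Of the 25 tested in the filtered comparison, 7 rose, against 3.29% of genes, and 1 fell, against 1.34%. The latter was Cnn1, a calponin of smooth muscle, which fell by 1.10. On mutants 2 and 3 Cnn1 read 5.54 and 5.51, close to the median of all probe sets, 5.52. Among those that rose were the metalloproteinase inhibitor Timp3 (1.28), the mesenchymal factor Twist2 (0.90) and the collagen gene Col5a1 (0.75). Mutants 2 and 3 both lay above both WT arrays for 19 of the 25 and below them for 1, against 35.2% and 22.1% of genes. Klf4 is also transcribed in fibroblasts, and whether the other members are was not examined. The part of feeder RNA in the values of the naive factors was not tested. Markers of embryonic stem cells, a list of 10 that shares Nanog and Zfp42 with the naive factors, were all above the median. Their mean was 11.77 and 11.78 on the WT arrays, 11.77 on the array labelled mutant 1, 11.50 on mutant 2 and 11.56 on mutant 3. In the filtered comparison 1 of the 10 fell, Utf1 (-0.80), and 0 rose, against 1.34% and 3.29% of genes. Mutants 2 and 3 both lay below both WT arrays for 7 of 10 and above them for 1, against 22.1% and 35.2% of genes. The median difference of the 10 without the array labelled mutant 1 was -0.18. Of these markers, Utf1 is also among the 10 formative and primed genes that fell. A further 6 of these markers are in the list of other naive and LIF network genes, so the lists are not independent.

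Relatives of the members within their gene families were examined to see which differences were shared by a family. Of the other KLF genes 13 were measured and 10 tested in the filtered comparison, where 0 rose and 0 fell, against 3.29% and 1.34% of genes. Of these 10, 2 had an unadjusted p below 0.05 (limma), against 28.8% of genes, with a median difference of 0.06 over the 13. Of those above the median, the largest differences without the array labelled mutant 1 were those of Klf3 (0.57, adjusted p = 0.103), Klf6 (0.43, 0.053) and Klf7 (-0.37, 0.31), and Klf16 had one of -0.33 (limma, adjusted p = 0.2). Of 24 measured relatives of the other members 17 were tested, and 1 rose and 1 fell, against 3.29% and 1.34% of genes. The T-box gene Tbx15, known from mesenchyme of the limb and skeleton, rose by 0.85, and Grhl2, a grainyhead factor of epithelia and the formative epiblast, fell by 1.5 (limma, adjusted p = 0.042 for both). The T-box genes Tbx18 and Eomes had differences of 0.49 and -0.33 and did not pass.

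Over the 5 arrays, the genes with the most similar pattern to a member were sought among 11559 genes whose mean reached 5.52, for members whose values spanned at least 0.5. Likeness was the root mean square difference between values after subtraction of each gene's WT mean. The closest to Tcl1 were Pld3 (0.0137) and Bet1l (0.016), and to Klf5 Tsnax (0.0071) and Ust (0.0126). For Esrrb they were Maged2 (0.0243) and Sema3e (0.0256), for Tbx3 Filip1l (0.0227) and Aqp3 (0.0316), for Tfcp2l1 Cpn1 (0.0235) and Rnf24 (0.028), and for Klf4 Piwil2 (0.0351) and Tanc1 (0.0353). Among the members themselves Esrrb and Tcl1 were nearest to each other (0.0699).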

How the data were processed

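RNA of 2 WT and 3 Trip12 mut/mut samples was measured on 1 array each. Labelling with biotin started from 6 µg of total RNA, per the labels' protocols. The deposited values are log2 values per probe set, made with RMA per the submitters' processing notes, of which no version is named. RMA normalises arrays to each other, so a shift shared by all transcripts cannot be seen, and it gives no detection call. Array medians were 5.51 to 5.55. The number of arrays limits the precision.

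The 64 control probe sets among 45101 were dropped. Symbols came from the platform annotation, which gave 34945 of 45037 probe sets 1 symbol, 932 several and 9160 none, and 34741 symbols were brought up to date by gene number with RefSeq (GRCm38.p6). A gene was represented by its probe set with the highest mean. The genotypes were compared in a two-sided test with limma 3.58.1 (lmFit, then eBayes, R 4.3.3) with no covariate, and p-values were adjusted by Benjamini-Hochberg over all genes tested, at a threshold of 0.05. The procedure was tested on simulated data. Figures were drawn with matplotlib 3.10.9.

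The members, the gene lists and the rule for naming genes were chosen with earlier results of these data known. The rule named all members, Trip12 and, in each list, up to 4 genes above the median with the largest absolute difference over all 5 arrays. The lists were other naive and LIF network genes, primed and formative epiblast genes, other KLF genes, relatives of the other members, repressors of the naive network, and markers of fibroblasts, primitive endoderm, trophoblast and embryonic stem cells. They are described by counts and medians. Alternatives were each array left out, a filter on dim probe sets alone and with the array labelled mutant 1 left out, further quantile normalisation, centring on array medians, a variance trend, array weights, a replicate block, averaging the probe sets of a gene, its probe set with the largest SD and a test of every probe set. No sample column was left unused.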

Additional observations from a re-analysis of the deposited data

How the results depend on the processing

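The counts of genes and of members called over all 5 arrays were 0 under each single alternative, with each array left out in turn included. With the array labelled mutant 1 left out and dim probe sets removed, 539 genes and 1 member, Tcl1 (0.545, adjusted p = 0.0467), were called (limma), and Trip12 passed with a difference of 2.12 (adjusted p = 0.042). When a gene's probe sets were averaged in addition, a setting chosen after seeing the data, 1461 genes and 2 members were called, Tcl1 (adjusted p = 0.0213) and Tbx3 (0.445, adjusted p = 0.0323), and the Trip12 difference was 0.655 (adjusted p = 0.0207). There 9.66% of genes passed as higher. Tfcp2l1 gave no value in that setting, since its averaged signal fell under the filter. Differences of Klf5, Esrrb, Tbx3, Tfcp2l1 and Tcl1 were positive under each alternative run, with Tbx3 between 0.235 and 0.724, Esrrb between 0.183 and 0.568, Tcl1 between 0.256 and 0.545, Klf5 between 0.158 and 0.402 and Tfcp2l1 between 0.0313 and 0.458.

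Members near 0 changed sign. The cause was not tested. Klf2 lay between -0.0424 and 0.0806 when each array was left out in turn. It was -0.0014 with the array labelled mutant 1 left out and dim probe sets removed, with or without averaging, and -0.00124 with centring. Over the same 5 settings Klf4 lay between -0.105 and 0.267, Zfp42 between -0.121 and 0.00169, Prdm14 between -0.00447 and 0.184, and Nanog between -0.172 and 0.0157. The sign changed without mutant 3 for Klf4 and without mutant 2 for the other 3. With the replicate block Klf2 was -0.0424, Klf4 -0.105 and the median of the members 0.139. It called 0 genes and 0 members. Deviations of like-numbered arrays from their group means correlated at r = -0.0429 and -0.0772 over probe sets. With 2 WT arrays, whose deviations mirror each other, and none numbered 3, this cannot show whether like-numbered samples were handled together.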

Other observations

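A list of repressors and antagonists of the naive network was drawn up by name, and the role of each gene in these cells was not tested. Of its 10 measured genes, mutants 2 and 3 both lay below both WT arrays for 4 and above them for 0, against 22.1% and 35.2% of genes. Of the 10, 1 fell in the filtered comparison and 0 rose, against 1.34% and 3.29%, with a median of -0.09. Nr6a1, a nuclear receptor that silences pluripotency genes during differentiation, fell by 1.11 (limma, adjusted p = 0.042). Tcf7l1, the Wnt pathway repressor of Esrrb and Nanog, read 10.13 and 10.18 on the WT arrays, 10.16 on the array labelled mutant 1, 9.0 on mutant 2 and 9.63 on mutant 3, and did not pass (difference -0.84, adjusted p = 0.118). The Polycomb partner Jarid2 had a difference of -0.41 and Mbd3 of the nucleosome remodelling and deacetylase complex one of -0.20, and neither passed.

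Markers of other cell types a culture could hold differed in direction from list to list. Of 10 primitive endoderm markers tested 2 rose and 0 fell, against 3.29% and 1.34% of genes. Those that rose were the basement membrane collagens Col4a1 (0.70) and Col4a2 (0.65), which fibroblasts also express. Mutants 2 and 3 both lay above both WT arrays for 7 of the 10 and below them for 0, against 35.2% and 22.1% of genes. Dab2 (0.57) and Lama1 (0.43) did not pass. Of 7 trophoblast markers tested 3 fell and 0 rose, against 1.34% and 3.29% of genes. Those that fell were the keratins Krt8 (-2.04), Krt18 (-1.28) and Krt7 (-0.78), which are shared with other epithelia. Mutants 2 and 3 both lay below both WT arrays for 3 of the 7, the same keratins, against 22.1% of genes. They lay above both for 0, against 35.2% of genes. Tfap2c had a difference of 0.33 and did not pass.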
